A study of Homo sapiens with 2 samples.

Results

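Mitochondrial ribosomal proteins are the protein subunits of the mitoribosome, the ribosome inside mitochondria. They are encoded in the nucleus, made in the cytosol and imported. The mitoribosome translates the few messages of mitochondrial DNA, all of them for subunits of the respiratory chain and ATP synthase, so that the nuclear and mitochondrial genomes both supply oxidative phosphorylation. Its large subunit joins amino acids and its small subunit reads the message. Some of its proteins descend from bacterial ribosomal proteins and others are specific to mitochondria. Members were the genes whose deposited symbol is MRPL or MRPS followed by a number and, in some, a letter from A to C. This pattern took 77 of the 25268 symbols in the tables, 48 with large subunit symbols (MRPL) and 29 with small subunit symbols (MRPS). Expression values had no part in the choice.

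The data were 2 stranded mRNA-seq libraries of C4-2B MDVR cells, an established line from castration-resistant prostate cancer, derived from LNCaP cells and resistant to enzalutamide, an antiandrogen. Cells of 1 library received the vehicle DMSO and cells of the other received 20 µM Indocin (indomethacin, a cyclooxygenase inhibitor that also inhibits the androgen-producing enzyme AKR1C3), each for 3 days. Both cultures were kept in 20 µM enzalutamide, so no library shows these cells without the antiandrogen. Each group was 1 library, so no difference has a replicate check and no error, test or p-value could be given. Of the markers of the lineage, FOLH1, which encodes prostate-specific membrane antigen, stood at 151.3 FPKM with DMSO and 171 FPKM with Indocin, and the 3 basal markers were all under 1 FPKM in both libraries: KRT14 at 0.545 and 0.318 FPKM, and KRT5 and TP63 listed at 0 with DMSO and at 0.024 and 0.011 FPKM with Indocin. Values are FPKM, in which the fragments of a gene are divided by its transcript length and by the size of the library, so that levels can be compared between genes. FPKM summed to 617510 with DMSO and 583096 with Indocin. The number of reads was unknown, and the steps of low values put the worth of 1 fragment in the Indocin library at 1.014 times that in the DMSO library.

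The genes of the mitoribosome were slightly and rather evenly lower in the Indocin library. All 77 had a mean of at least 5 FPKM and so passed the minimum of 1 FPKM. The log2 ratio, log2((Indocin FPKM + 1)/(DMSO FPKM + 1)), was below 0 for 73 of the 77 members, against 55.2% of the 11965 genes tested, and above 0 for 4, against 44.8%. Its median was -0.13 over the members (quartiles -0.19 and -0.07) and -0.02 over all tested genes (quartiles -0.15 and 0.11). The differences were small. On the FPKM + 1 scale, 2 members stood at 80% of DMSO or less with Indocin, where 7.29% of all tested genes did, and 0 were higher by that factor, where 6.91% were. None of the 77 differed by 1.5-fold in either direction, where 0.744% of tested genes were that much lower and 2.19% that much higher. Most members thus lay on 1 side of 0, and few reached a fold that is itself modest. Because FPKM is relative to the library, the count depends on the scaling. After the upper quartiles of the libraries were made equal, 59 members were lower, against 41.2% of tested genes. Genes with higher FPKM had lower ratios in general (Spearman's rho -0.24 across the 11965 genes, which share both libraries), and members are well expressed. After ratios were centred on the median of genes with similar mean FPKM, 57 of 77 were lower and the median was -0.05. In bulk RNA, fewer cells of a kind and less RNA per cell cannot be told apart.

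**Figure D1:**
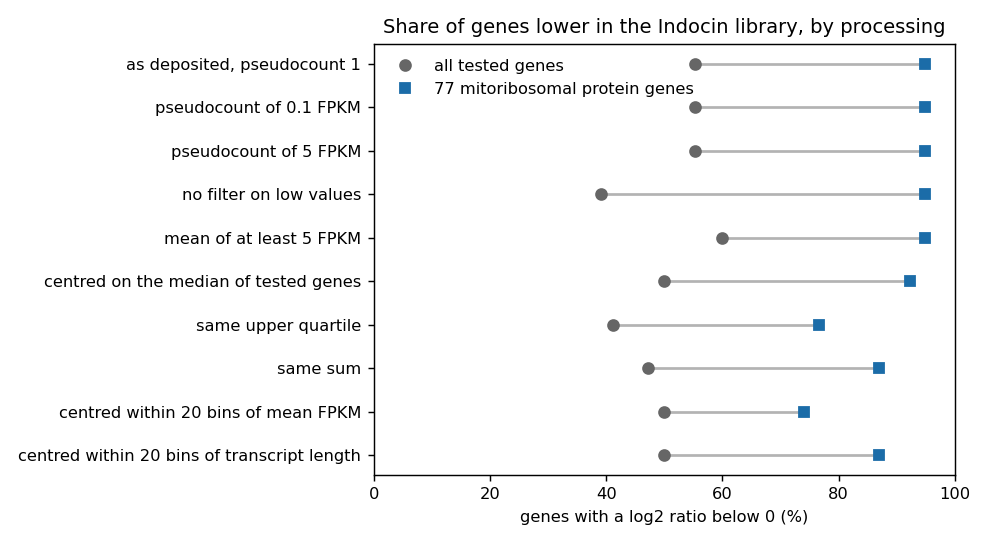
Share of genes with a log2 ratio below 0 (x axis, percent) under each way of processing (y axis), for the 77 members (squares) and all tested genes (circles), from 1 library per group. The members' share lies above that of all genes in every row, from 74.0% to 94.8%, and is smallest with ratios centred within 20 bins of mean FPKM.

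Promoter sequences are shown because a short motif recurs near the start sites of some members. Whether the motif bears on the ratios was not tested. RefSeq promoters (GRCh38.p14, 250 bases before to 50 after the annotated start) were matched by symbol for 68 of the 77 members. The letters AAGATGGC, the core of the site bound by the transcription factor YY1, were found on either strand in 20 of these 68 promoters (29.4%), 12 of large and 8 of small subunit genes. The same letters were in 5.75% of the 9570 promoters of tested genes, in 3.00% of all 27305 promoters and in 10.9% of 64 promoters of cytosolic ribosomal proteins. In 15 of the 20 they stood after the start and on the gene's own strand. Windows of 30 bases from 5′ to 3′ are given for the lowest ratio that carries the motif (MRPL36), the 2 highest (MRPS18A, MRPS10), the 2 most abundant members (MRPL51, MRPL20) and 2 others. Capitals mark the motif, or its reverse complement GCCATCTT, and the number is the position of its first base, counted from 1 at the start site and negative before it.

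MRPL36, minus strand of chr5:1799854-1799883, position -35: ccccccccgccGCCATCTTccttcctggca
MRPS18B, plus strand of chr6:30617852-30617881, position 24: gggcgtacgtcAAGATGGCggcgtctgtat
MRPS7, plus strand of chr17:75261887-75261916, position 20: cgtggccagccAAGATGGCtgcccccgcag
MRPL20, minus strand of chr1:1407260-1407289, position 16: ccgacccgggcAAGATGGCagcggcgctgc
MRPL51, minus strand of chr12:6493223-6493252, position 22: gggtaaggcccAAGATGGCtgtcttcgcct
MRPS10, minus strand of chr6:42217834-42217863, position 10: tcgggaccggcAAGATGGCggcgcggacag
MRPS18A, minus strand of chr6:43687764-43687793, position 10: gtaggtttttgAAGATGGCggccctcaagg

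Members with and without the motif had similar ratios: the median log2 ratio was -0.12 for the 20 genes with it and -0.14 for the other members with a promoter. CCGGAAGT, an ETS motif such as the factor GABPA binds, was in 11 of 68 promoters (16.2%, against 9.37% of promoters of tested genes). The motif of NRF1, a regulator of mitochondrial genes, was in 6 (8.82%, against 12.2%); its letters are the capitals of the MRPL17 sequence below, with any base in the place of the T. The E-box CACGTG, bound by MYC among others, was in 9 (13.2%, against 10.3%). TGATGNAA, an ATF4 response element, was in 1, that of MRPL55 (1.47%, against 1.60%). All were searched on both strands, and a match is a run of letters and not a shown binding site. Members with and without the E-box had medians of -0.14 and -0.13, and those with and without the NRF1 motif -0.11 and -0.14.

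The 250 bases before the start are given for MRPS17, the member with the lowest ratio, and for MRPL17, which had the NRF1 motif (in capitals, position -81) and the fifth lowest ratio. The MRPS17 stretch held no match to the 5 motifs.

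MRPS17, plus strand of chr7:55951627-55951876: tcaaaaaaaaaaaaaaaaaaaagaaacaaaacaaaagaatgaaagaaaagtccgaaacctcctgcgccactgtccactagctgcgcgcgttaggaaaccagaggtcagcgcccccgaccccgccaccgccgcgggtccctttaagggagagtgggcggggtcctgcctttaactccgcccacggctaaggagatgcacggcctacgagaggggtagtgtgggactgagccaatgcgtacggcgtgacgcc
MRPL17, minus strand of chr11:6683341-6683590: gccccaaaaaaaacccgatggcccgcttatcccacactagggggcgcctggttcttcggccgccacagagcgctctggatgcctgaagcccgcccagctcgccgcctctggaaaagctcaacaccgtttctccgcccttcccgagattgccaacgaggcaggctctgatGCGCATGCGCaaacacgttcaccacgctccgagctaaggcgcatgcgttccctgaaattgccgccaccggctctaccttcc

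Levels of the members spanned a wide range and had nearly the same order in both libraries. MRPL51, a protein specific to mitochondria, was the most abundant, at 323.6 FPKM with DMSO and 291.7 FPKM with Indocin. MRPL20, the counterpart of a bacterial protein that acts early in assembly of the large subunit, followed at 304.4 and 262.5 FPKM, and MRPL41 at 279.6 and 252.4 FPKM. These 3 had log2 ratios of -0.15, -0.21 and -0.15. At the other end stood MRPS31 (10.2 FPKM with DMSO and 9.28 FPKM with Indocin), MRPL35 (14.8 and 13.5 FPKM) and MRPL22 (15.2 and 14.1 FPKM), with ratios of -0.12, -0.12 and -0.10. Of the 77 genes 20 had a mean of at least 100 FPKM and 6 a mean under 20 FPKM. Spearman's rho between the libraries across the 77 levels was 0.99, as a description of genes that share both libraries. Proteins of 1 particle that are mostly present in single copies were thus encoded by messages at very different levels. Together the members held 1.08% of the summed FPKM with DMSO and 1.03% with Indocin, and their own sum went from 6677 to 6006 FPKM, or 90.0% of the DMSO value. The sum over all tested genes in the Indocin library was 94.5% of that with DMSO.

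**Figure D2:**
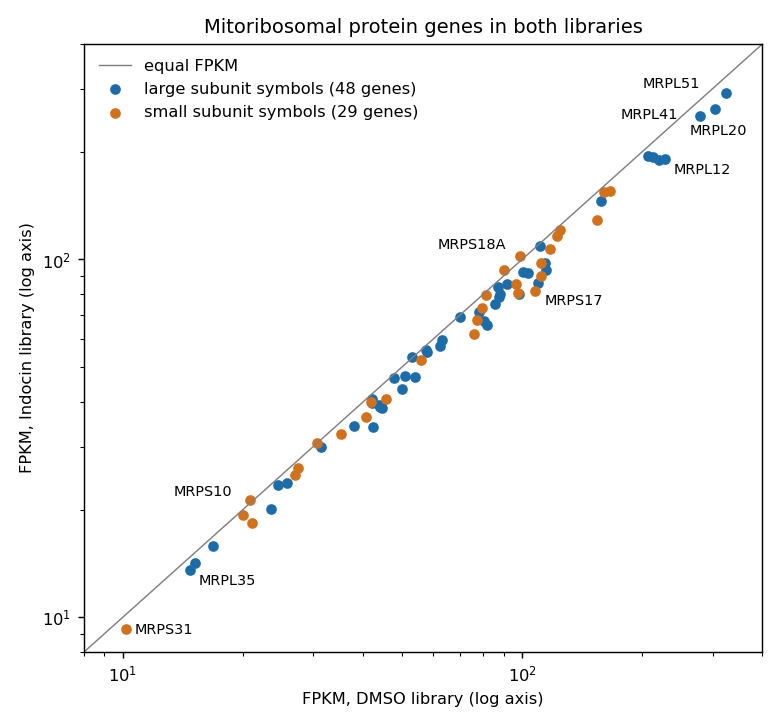
FPKM of each of the 77 members in the DMSO library (x axis, log scale) and the Indocin library (y axis, log scale), with large subunit symbols in blue, small subunit symbols in orange and a line of equal FPKM. Nearly all points lie just below the line, from MRPS31 near 10 FPKM to MRPL51 near 300 FPKM, and 4 points lie above it.

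Large and small subunit genes differed little from each other. The median log2 ratio was -0.14 over the 48 MRPL genes (quartiles -0.20 and -0.08), of which 47 were below 0, and -0.11 over the 29 MRPS genes (quartiles -0.18 and -0.06), of which 26 were below 0. The difference of the medians, large minus small, was -0.02, less than the width of either quartile range. Ratios at or below -0.20 were found for 12 large and 5 small subunit genes, 17 of 77 members in all, against 18.2% of all tested genes. Summed FPKM of the large subunit genes was 4426 with DMSO and 3957 with Indocin (89.4% of DMSO), and that of the small subunit genes 2251 and 2049 (91.0%). MRPS18A and MRPS30 carry small subunit names, but their proteins sit in the large subunit, and MRPS36 is now known as a component of the 2-oxoglutarate dehydrogenase complex. With the first 2 moved and MRPS36 left out, the medians were -0.13 over 50 genes and -0.12 over 26.

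Origin of the protein made as little difference as subunit. Among large subunit genes, the 30 shared with bacteria had a median of -0.12 (29 below 0) and the 18 specific to mitochondria a median of -0.14 (18 below 0). Among small subunit genes these medians were -0.11 over 16 (15 below 0) and -0.12 over 11 (10 below 0). Large subunit genes shared with bacteria ran from -0.35 to 0.01, and the fewer specific to mitochondria from -0.22 to -0.03. The quartiles of these 2 classes were -0.22 and -0.08, and -0.18 and -0.08. In the small subunit the wider quartiles were those of the specific genes, at -0.19 and -0.07, against -0.17 and -0.07 for shared genes.

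**Figure D3:**
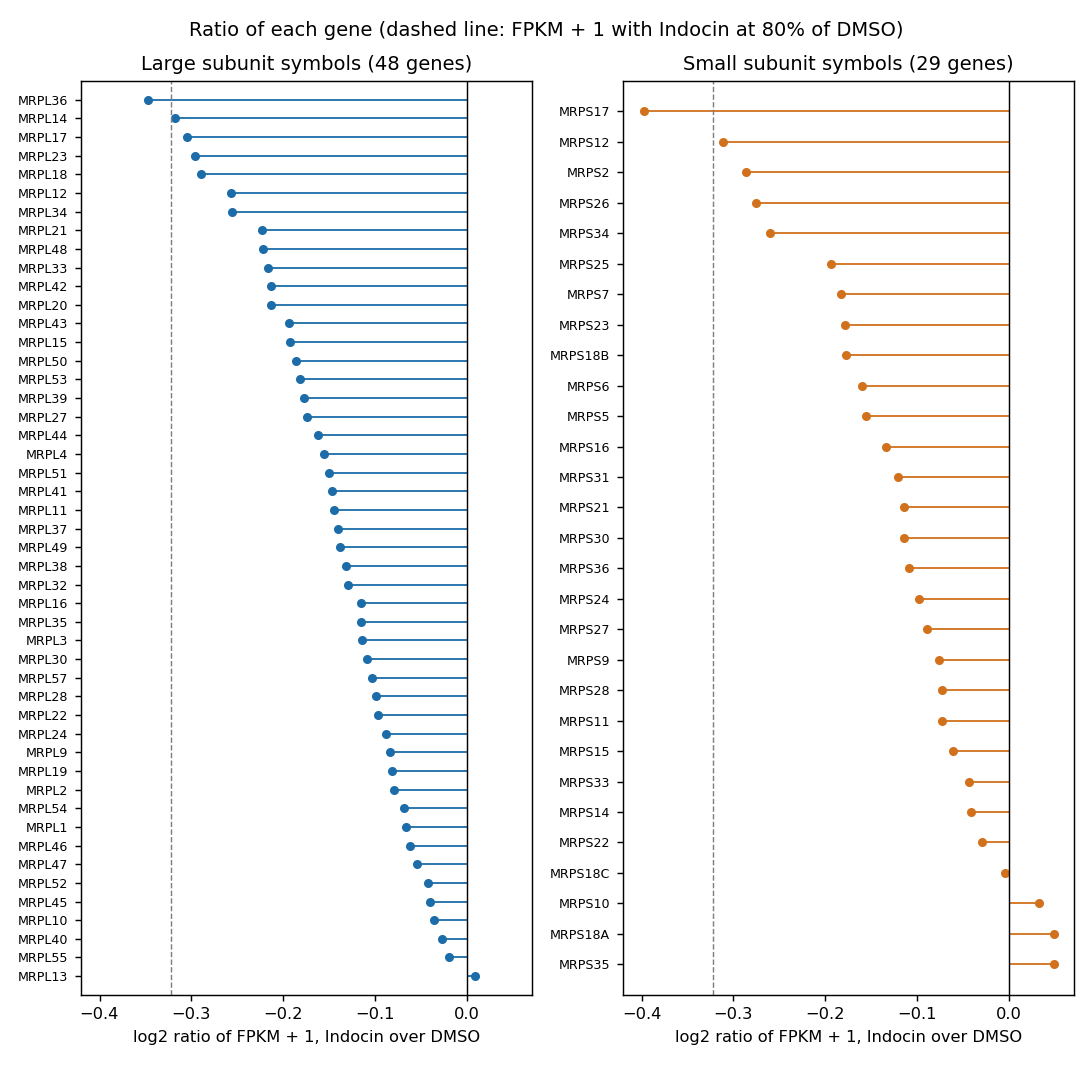
Log2 ratio of FPKM + 1, Indocin over DMSO (x axis), of every member in order (y axis), large subunit symbols on the left and small on the right; the dashed line marks an Indocin value of FPKM + 1 at 80% of DMSO. MRPS17 and MRPL36 lie past the dashed line, and MRPL13, MRPS10, MRPS18A and MRPS35 lie above 0.

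The lowest ratios came from genes of both subunits. MRPS17, a small subunit protein whose bacterial counterpart binds the ribosomal RNA directly, stood at 108.1 FPKM with DMSO and 81.8 FPKM with Indocin, with a log2 ratio of -0.40; 4.03% of tested genes lay lower. MRPL36, the counterpart of the smallest bacterial large subunit protein, stood at 109.9 and 86.2 FPKM (-0.35). These were the 2 members at 80% of DMSO or less. NDUFS6, a complex I subunit gene on the other strand that starts 34 bases from MRPL36, stood at 193.2 and 173.4 FPKM (-0.16).

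Just short of that mark on the FPKM + 1 scale was MRPL14, at 81.8 FPKM with DMSO and 65.5 FPKM with Indocin (-0.32). Its plain FPKM with Indocin was 79.999% of that with DMSO. In the mature particle its protein lies at the interface of the subunits, and during assembly it binds the factor MALSU1. MRPS12, the protein of the decoding centre whose bacterial counterpart is altered in streptomycin resistance, stood at 111.7 and 89.8 FPKM (-0.31). MRPL17 stood at 42.3 and 34.0 FPKM (-0.30) and MRPL23, a protein near the exit of the peptide tunnel, at 98.5 and 80.1 FPKM (-0.30). In each of these 4 the Indocin FPKM was about 80% of the DMSO FPKM. MRPL18, of the central protuberance of the large subunit, stood at 114.7 and 93.7 FPKM (-0.29). The small subunit genes MRPS2 (75.9 and 62.0 FPKM, -0.29), MRPS26 (97.9 and 80.7 FPKM, -0.27) and MRPS34 (154.1 and 128.5 FPKM, -0.26) completed the 10 lowest. MRPS2 and MRPS34 are genes in which inherited mutations cause combined oxidative phosphorylation deficiency.

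At the upper end no member was clearly higher in the Indocin library. MRPS35, a small subunit protein specific to mitochondria, stood at 90.3 FPKM with DMSO and 93.4 FPKM with Indocin (0.05). MRPS18A stood at 99.0 and 102.4 FPKM (0.05), MRPS10 at 20.8 and 21.3 FPKM (0.03) and MRPL13 at 52.9 and 53.3 FPKM (0.01). These 4 had the only ratios above 0, and all 4 were above 0 under each scaling and setting tried. Close below them were MRPS18C (30.7 and 30.6 FPKM, 0.00 after rounding), MRPL55 (70.0 and 69.0 FPKM, -0.02), MRPL40 (-0.03), MRPS22 (81.3 and 79.6 FPKM, -0.03), MRPL10 (47.8 and 46.6 FPKM, -0.04) and MRPL45 (-0.04). The 2 values of each of these genes were nearly equal.

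The 3 MRPS18 genes are paralogs of each other and related to 1 bacterial protein, and each was listed with its own value. In the classes by origin, MRPS18B was counted as specific to mitochondria and MRPS18C as shared with bacteria. MRPS18A, whose protein is in the large subunit, had the highest level and a ratio of 0.05. MRPS18B stood at 96.9 FPKM with DMSO and 85.6 FPKM with Indocin (-0.18). MRPS18C, the one that takes the place of the bacterial protein in the small subunit, was least abundant and nearly equal in both. The family therefore ran from -0.18 to 0.05, where all members ran from -0.40 to 0.05. MRPS18B lay just above the lower quartile of the members, -0.19, while MRPS18A was among the few above 0.

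Functional sites of the ribosome held both larger and smaller differences. In the stalk that recruits translation factors, MRPL12, which is present in several copies per ribosome, stood at 227.9 FPKM with DMSO and 190.7 FPKM with Indocin (-0.26). MRPL11, at the base of the stalk, stood at 37.9 and 34.2 FPKM (-0.14), and MRPL10, which anchors MRPL12, differed least (-0.04). Around the peptidyl transferase centre MRPL2 stood at 42.0 and 39.7 FPKM (-0.08), MRPL3 at 158.1 and 146 FPKM (-0.11), MRPL16 at 62.2 and 57.3 FPKM (-0.12) and MRPL27 at 103.8 and 91.9 FPKM (-0.17). All 4 were lower by less than MRPL12.

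At the exit of the peptide tunnel MRPL24 stood at 207.1 FPKM with DMSO and 194.8 FPKM with Indocin (-0.09), and MRPL47 at 87.2 and 83.9 FPKM (-0.05). MRPL45, which tethers the ribosome to the inner membrane near the insertase OXA1L, stood at 57.5 and 55.9 FPKM (-0.04). These 3 differed less than MRPL17 and MRPL23. MRPL32, whose protein is matured by the m-AAA protease before assembly, stood at 78.1 and 71.3 FPKM (-0.13). In the small subunit, MRPS24 and MRPS5, at the path of the message, had ratios of -0.10 and -0.16. MRPS7, of the head, stood at 111.4 and 98.0 FPKM (-0.18), MRPS16 at 117.7 and 107.2 FPKM (-0.13) and MRPS11, of the platform, at 42.0 and 39.9 FPKM (-0.07).

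Mitoribosomal proteins that carry other symbols had similar values. Of the 6 listed, 5 were below 0, against 55.2% of all tested genes. The median of the 6 was -0.14. CHCHD1, a small subunit protein, stood at 107.7 FPKM with DMSO and 93.6 FPKM with Indocin (-0.20), and GADD45GIP1, a large subunit protein, at 140.6 and 123.6 FPKM (-0.18). The peptidyl-tRNA hydrolase ICT1 had a ratio of -0.06. DAP3, a GTP-binding protein of the small subunit, was the exception, at 90.1 and 100.8 FPKM (0.16).

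Genes that build and serve the mitoribosome were compared from lists of textbook function. Of 24 assembly factors 18 were below 0, against 55.2% of all tested genes. The factors had a median of -0.10 and quartiles of -0.20 and -0.01, wider than those of the proteins themselves. The lowest were the ribosomal RNA methyltransferase FTSJ2, also called MRM2 (45.2 FPKM with DMSO and 33.9 FPKM with Indocin, -0.40), and WBSCR16, also called RCC1L (65.3 and 49.8 FPKM, -0.38). They were the 2 of 24 at 80% of DMSO or less, where 7.29% of all tested genes were. The highest were METTL15 (3.05 and 3.84 FPKM, 0.26), a methyltransferase of the small subunit RNA, and YBEY (7.80 and 9.21 FPKM, 0.21). MALSU1, the partner of MRPL14, had a ratio of -0.05.

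Translation factors of mitochondria lay near the middle of all genes. Of 14 factors 9 were below 0, against 55.2% of all tested genes. The median of the factors was -0.03. The elongation factor TUFM stood at 212.5 FPKM with DMSO and 207 FPKM with Indocin (-0.04). MTFMT, which formylates the initiator tRNA, had a ratio of -0.21 and MTRF1L, a release factor, of -0.17. C12orf65, also called MTRFR, a factor that rescues stalled mitoribosomes, stood at 16.4 and 22.9 FPKM (0.46). MTIF3, an initiation factor, followed at 0.12. C12orf65 was the only one of the 14 higher by the factor used above, where 6.91% of all tested genes were. By the same factor 0 were lower, where 7.29% of all tested genes were.

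Among 9 genes of mitochondrial transcription and RNA stability 7 were below 0, against 55.2% of all tested genes. The median of the 9 was -0.13. MTERF stood at 8.54 and 6.78 FPKM (-0.29) and PNPT1 at 14.7 and 12.7 FPKM (-0.19), while LRPPRC (0.06) and the helicase SUPV3L1 (0.07) were above 0. The mitochondrial RNA polymerase POLRMT had a ratio of -0.18.

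Regulators of nuclear genes for mitochondria differed among themselves. Of the 8 that passed the filter 6 were below 0 and 3 at 80% of DMSO or less. Over all tested genes these shares were 55.2% and 7.29%. MYC, a transcription factor that promotes ribosome and mitochondrial biogenesis, stood at 113.9 FPKM with DMSO and 81.6 FPKM with Indocin (-0.48), and the coactivator PPRC1 at 21.4 and 15.3 FPKM (-0.46). PPARGC1B, the third, had a ratio of -0.43. YY1, whose motif was in 20 of the 68 member promoters, stood at 48.7 and 42.2 FPKM (-0.20). NRF1 (6.69 and 7.10 FPKM, 0.08) and the ETS factor GABPA (6.40 and 6.97 FPKM, 0.11) were slightly higher. PPARGC1A, at 0.320 and 0.314 FPKM, did not reach the filter. Whether the levels of these regulators bear on those of the members was not tested.

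**Figure D4:**
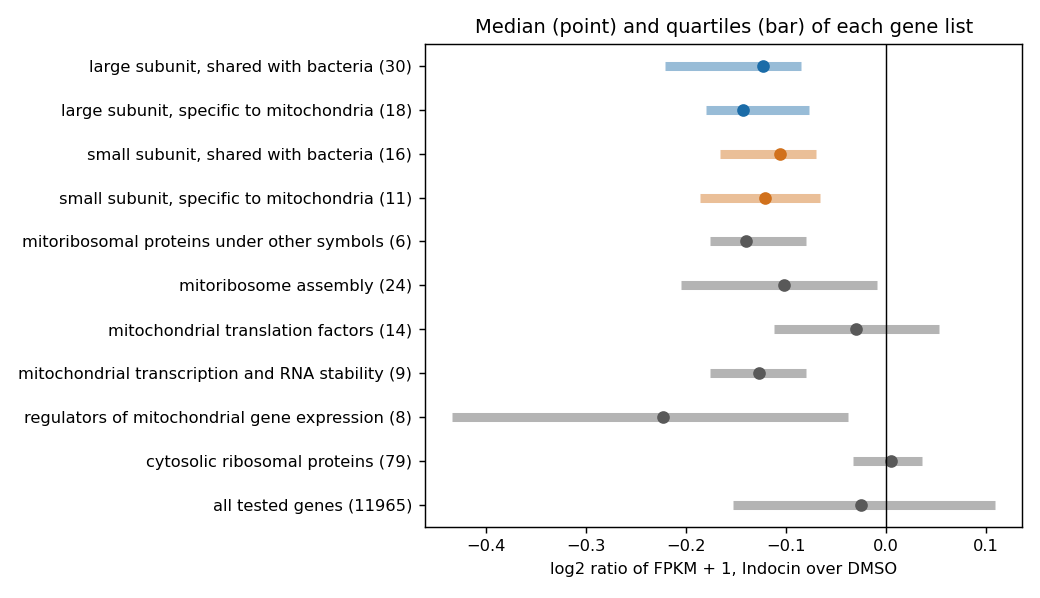
Median (point) and quartiles (bar) of the log2 ratio of FPKM + 1, Indocin over DMSO (x axis), for classes of members and other gene lists (y axis, with the number of genes), large subunit in blue, small subunit in orange and other lists in grey. The 4 classes of members have medians from -0.14 to -0.11, and cytosolic ribosomal proteins have a median of 0.01.

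Genes for proteins of the cytosolic ribosome lay around 0 with the values as deposited. Of 79 genes 38 were below 0 and 41 above, where 55.2% and 44.8% of all tested genes were. The median of the cytosolic genes was 0.01 and the quartiles were -0.03 and 0.04. Their summed FPKM was 148175 with DMSO and 148148 with Indocin. The lowest ratios were those of RPS26 (1295 FPKM with DMSO and 1110.2 FPKM with Indocin, -0.22) and RPL36AL (-0.15), and the highest that of RPL21 (1002 and 1394 FPKM, 0.48) and RPS6 (0.07). The upper quartile of the members, -0.07, lay below the lower quartile of the cytosolic genes. With ratios centred on genes of similar mean FPKM, 73 of 79 cytosolic genes were above 0, against 5980 of 11965 tested genes. The cytosolic median was then 0.07, and that of the members -0.05. With the same upper quartile the cytosolic median was 0.08, with 74 above 0, against 7032 of 11965 tested genes. The cytosolic genes are far more abundant, with a median of 1739 FPKM with DMSO against 76.9 FPKM for the members.

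Genes that start close to a member were also compared. In the GENCODE 29 annotation, 29 of the 77 have a protein-coding gene on the opposite strand that starts within 1000 bases, in 28 distinct pairs, 1 of them between MRPL46 and MRPS11. How common such neighbours are among all genes was not counted. Of the partners, 24 were not members, were matched to a symbol in the tables and passed the filter. They had a median ratio of -0.04 with 15 below 0, where 55.2% of all tested genes were. The members of these pairs had a median of -0.15 with 23 below 0. The 48 members without such a partner had a median of -0.12. Ratios of members and their partners within 1000 bases were only weakly related (Spearman's rho 0.16 across the 24 pairs, all from the same 2 libraries). Partners at 80% of DMSO or less were SKA3, a kinetochore protein beside MRPL57 (12.1 FPKM with DMSO and 7.96 FPKM with Indocin, -0.55, against -0.10 for MRPL57), and EME1, a DNA repair nuclease subunit beside MRPL27 (10.5 and 8.03 FPKM, -0.35). SARS2, the mitochondrial seryl-tRNA synthetase beside MRPS12, stood at 13.5 and 13.9 FPKM (0.03, against -0.31 for MRPS12). The chaperonin subunit TCP1, beside MRPL18, stood at 302.3 and 261.5 FPKM (-0.21). Genes named here as partners were picked after their values were seen.

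Members have short transcripts, with a median length of 1532 bases for the longest annotated one, against 3296.5 bases for tested genes. Within the members, length had little relation to the ratio: the 39 at or under that median length had a median ratio of -0.13 and the 38 longer ones -0.12. With ratios centred on genes of similar length, an alternative chosen after seeing the data, 67 of 77 were lower, against 50% of tested genes. The median of the members was then -0.08. In the annotation 49 of the 77 overlap another gene, 38 of them a gene on the other strand. The share of all tested genes with such overlaps was not counted. MRPS17, the member with the lowest ratio, overlaps 2 genes on its own strand. The strand setting of the counting is not given in the sources used here, and several members have processed pseudogenes, so reads can have been divided or shared at these genes.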

How the data were processed

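The data, 1 library per group, were used as deposited. The authors' values are FPKM per gene symbol with a status, OK in every line, per the file headers. The tools Cuffnorm, StringTie, Cufflinks, TopHat and bcl2fastq and GRCh37/hg19 as build appear in the submitters' processing notes, with neither version nor role, and the annotation is not given. FPKM are not counts, so no count test was run. Log2 ratios used a pseudocount of 1 FPKM, which understates folds of low genes. Of 25268 symbols, 2044 short RNA symbols were left out, and a mean of at least 1 FPKM was required, which left 11965. Genes named were the 10 highest and 10 lowest members, the 3 most and 3 least abundant, some fixed members, and 2 highest and 2 lowest of each other list; members named for their site in the ribosome, other list genes and partners were chosen with values known. The members, lists and motifs were chosen with earlier results of these data known. Relative depth was read from 1335 genes with a mean under 0.05 FPKM, of which 11.5% had a ratio within 0.2% of the factor times a ratio of small whole numbers. Transcript lengths (97.6% of tested genes) and neighbours came from GENCODE 29 on GRCh38, by symbol or RefSeq synonym; promoters came from RefSeq. Those coordinates were not joined to the deposited values other than by symbol. The calculation, in Python 3.11.15 with pandas 2.3.3, was tested on simulated data. Alternatives were a pseudocount of 0.1 or 5 FPKM, a minimum mean of 5 FPKM or none, centring, 2 scalings, and other memberships. Some genes and 1 sequence are not reported here.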

Additional observations from a re-analysis of the deposited data

How the results depend on the processing

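No paired analysis was possible because each group has 1 library. The pseudocounts, the filters on low values and centring on the median of tested genes left every median and count of the members within 1.5 times its value. Members lower numbered 71 to 73, and the share of tested genes lower ran from 39.1% to 59.9%. With the same upper quartile, the median was -0.0581 over all members, -0.0671 over large and -0.0430 over small subunit genes. Then 18 members were higher and 1 stood at 80% of DMSO or less, against 7032 and 520 of 11965 tested genes. With the same sum (short RNA genes and BCYRN1 left out), the small subunit median was -0.0736. Here 10 members were higher and 1 at 80% of DMSO or less, against 6317 and 657 of 11965 tested genes. With ratios centred within 20 bins of mean FPKM, the medians were -0.0525, -0.0670 and -0.0349. In this setting 20 members were higher and 0 at 80% of DMSO or less, against 5980 and 749 of 11965 tested genes. Centred within 20 bins of transcript length, chosen after seeing the data, the medians were -0.0815 over all members and -0.0718 over small subunit genes. By length 10 members were higher and 1 at 80% of DMSO or less, against 5840 and 675 of 11680 tested genes. The cause of these shifts in the members' values was not tested. Of the 77 members, 56 were below 0 and 4 above 0 under each scaling, filter and pseudocount. The difference of the subunit medians was between -0.0361 and -0.0174 in all of them and under both other memberships. The number of reads behind each value is unknown, so counting error was not estimated, and without a second library per group the spread between cultures is unknown.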
